A study of Mus musculus with 12 samples.

Results

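The genes described here are 45 imprinted genes of the mouse, a list of symbols of known imprinted loci looked up by name among the 26219 genes of the expression table. All 45 had a row. Of these, 24 are known to be expressed from the paternal allele and 20 from the maternal allele, and Gnas is expressed from either or both, depending on the transcript. Of the 45, 11 were marked as imprinted only in some tissues or for some transcripts. The marked genes are Cd81, Tssc4, Nap1l4, Ube3a, Casd1, Ppp1r9a, Copg2, Blcap, Dcn, Inpp5f and Gnas. Imprinting of other members may be limited in this way too. The 45 genes were measured in 12 libraries from 6 lines with 2 culture replicates each. The method was SC3-seq, which reads amplified cDNA at the 3′ ends of transcripts, from 1 ng of total RNA per library. GSCLC_1 to GSCLC_4 are lines of germline stem cell-like cells that grew out of reconstituted testes. GSCLC_2 and GSCLC_3 (condition 2) came from testes held for 2 weeks at 37°C and then 1 week at 34°C, and GSCLC_1 and GSCLC_4 (condition 1) from testes held for 3 weeks at 34°C. GSC_1 and GSC_2 are lines of germline stem cells, the form that spermatogonial stem cells take when grown in culture, each from its own testis at postnatal day 7. All 6 lines share the C57BL/6 x 129/SvJcl background, carry the AcrAct_EGFP reporter and were grown in one medium with GDNF, bFGF, LIF and EGF. GSCLC lines came from reconstituted and GSC lines from postnatal testes, so the kind of cell and its origin cannot be told apart. P-values between lines rest on the spread between the culture replicates of a line and speak for these lines alone.

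An imprinted gene is transcribed mainly from the copy of one parent. For most such genes, though not for all, DNA methylation laid down in the oocyte or the sperm marks a control region of the cluster. The marks are erased in primordial germ cells and set again by sex, so that male germ cells come to carry a sperm pattern on both chromosomes: methylated at the H19-Igf2, Dlk1-Dio3, Rasgrf1 and Zdbf2 control regions and unmethylated at those marked in the oocyte. In most somatic tissues of the mouse, the paternal copies of Igf2, Slc38a4, Mest and Peg3 and the maternal copies of H19, Grb10, Cdkn1c, Phlda2 and Meg3 are the active ones. The values below are RPM (reads scaled to a total common to all libraries) that add both parental copies, and the 3′ tags do not separate transcripts that end together, so they show the level of a gene and not the parental copy it came from.

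The 12 libraries held an implied 3031705 to 4644183 counted reads, at which 3 reads correspond to 0.646 to 0.99 RPM. Germ cell markers summed to 3315 to 4137 RPM in GSCLC libraries and 3502 to 4063 RPM in GSC libraries (12 of 12 markers in the table). The 21 fibroblast and mesenchyme markers were all detected and summed to 614 to 1018 RPM in GSCLC libraries and 720 to 1400 RPM in GSC libraries, with the highest sums, 1314 and 1400 RPM, in GSC_2. Leydig and peritubular markers summed to 14.8 to 56.7 RPM in GSCLC libraries and 40.8 to 138 RPM in GSC libraries, with Cyp17a1 and Lhcgr at 0 in all 12. Sertoli markers summed to 36.9 to 135 RPM in GSCLC libraries and 41.1 to 153 RPM in GSC libraries, with Amh at 0 in all 12, and the 9 macrophage and endothelium markers in the table to 12.3 to 25.7 RPM in GSCLC libraries and 26.1 to 40.8 RPM in GSC libraries.

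Start-site windows of 4 members with large differences in level are shown with their CG pairs, since DNA methylation in mammals falls mainly on the C of a CG. No methylation was measured here, a start site need not be the control region of its cluster, and no window of H19 was used. RefSeq promoter windows on GRCm38.p6 (250 bases before to 50 after a start) were found for 38 of the 45 members, 58 windows in all. Each window below reads 5′ to 3′ on the strand of its gene, with every CG in capitals. Slc38a4 was the member that differed most between GSCLC and GSC lines, and its upstream start lies at chr15:97055907-97056206 on the minus strand. Grb10 and Mest had the largest changes among the 5 members called in GSCLC_3. Grb10 has an upstream start at chr11:12037371-12037670 and a downstream start at chr11:12027922-12028221, both on the minus strand, and Mest a start at chr6:30737800-30738099 on the plus strand. Phlda2, at chr7:143502475-143502774 on the minus strand, varied among GSCLC lines and was higher in each of their libraries than in any GSC library.
Slc38a4 upstream start: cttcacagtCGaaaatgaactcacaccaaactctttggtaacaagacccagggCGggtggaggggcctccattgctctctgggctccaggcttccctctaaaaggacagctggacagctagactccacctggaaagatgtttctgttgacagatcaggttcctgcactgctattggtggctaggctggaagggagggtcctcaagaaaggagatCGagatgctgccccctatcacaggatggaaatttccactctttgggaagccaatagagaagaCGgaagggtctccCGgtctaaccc
Grb10 upstream start: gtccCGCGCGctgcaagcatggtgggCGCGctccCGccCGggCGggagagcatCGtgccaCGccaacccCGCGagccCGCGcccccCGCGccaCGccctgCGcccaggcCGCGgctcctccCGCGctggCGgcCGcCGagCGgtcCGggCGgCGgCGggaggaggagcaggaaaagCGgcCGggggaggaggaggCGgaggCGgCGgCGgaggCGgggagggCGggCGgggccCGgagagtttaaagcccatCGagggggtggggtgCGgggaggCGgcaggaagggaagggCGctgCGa
Grb10 downstream start: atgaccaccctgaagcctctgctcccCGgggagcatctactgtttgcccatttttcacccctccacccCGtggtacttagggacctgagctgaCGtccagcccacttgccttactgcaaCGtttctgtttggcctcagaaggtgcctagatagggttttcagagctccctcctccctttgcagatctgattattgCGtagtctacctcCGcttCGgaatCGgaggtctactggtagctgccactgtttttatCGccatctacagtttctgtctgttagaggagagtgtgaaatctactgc
Mest start: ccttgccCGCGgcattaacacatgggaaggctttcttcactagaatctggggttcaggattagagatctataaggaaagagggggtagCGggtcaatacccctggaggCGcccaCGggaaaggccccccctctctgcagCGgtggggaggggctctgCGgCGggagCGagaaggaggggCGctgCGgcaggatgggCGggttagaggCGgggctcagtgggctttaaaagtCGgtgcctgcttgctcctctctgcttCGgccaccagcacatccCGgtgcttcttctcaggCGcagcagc
Phlda2 start: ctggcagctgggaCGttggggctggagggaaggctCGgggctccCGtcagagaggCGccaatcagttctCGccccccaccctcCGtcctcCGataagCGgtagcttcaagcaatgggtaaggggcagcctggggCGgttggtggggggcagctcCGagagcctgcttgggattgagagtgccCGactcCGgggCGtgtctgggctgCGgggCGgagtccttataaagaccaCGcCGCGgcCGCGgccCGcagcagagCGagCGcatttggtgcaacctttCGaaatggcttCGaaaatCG

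The windows differ in their content of CG. The upstream Grb10 window holds 45 CG and the downstream one 9, the Phlda2 window 26, the Mest window 17 and the Slc38a4 window 5. The median over the 58 windows of members was 14.5 CG, against 7 over all 32851 promoter windows, and 57 of the 58 held at least 1, against 94.6% of all windows. The hexamer TGCCGC, the sequence that the imprint-keeping zinc finger protein ZFP57 binds when its CG is methylated, was searched on both strands; it contains a CG and so overlaps the capitals. It occurred in 13 of the 58 windows (22.4%), against 11.6% of all windows, including 1 match in the upstream Grb10 window and 2 in the Mest window. As windows of members held more CG, these shares are not matched for CG content. Some windows of one gene also overlap, such as the Mest windows that start at 30737800 and 30737803. A match describes the letters of a window and is not a binding site.

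**Figure D1:**
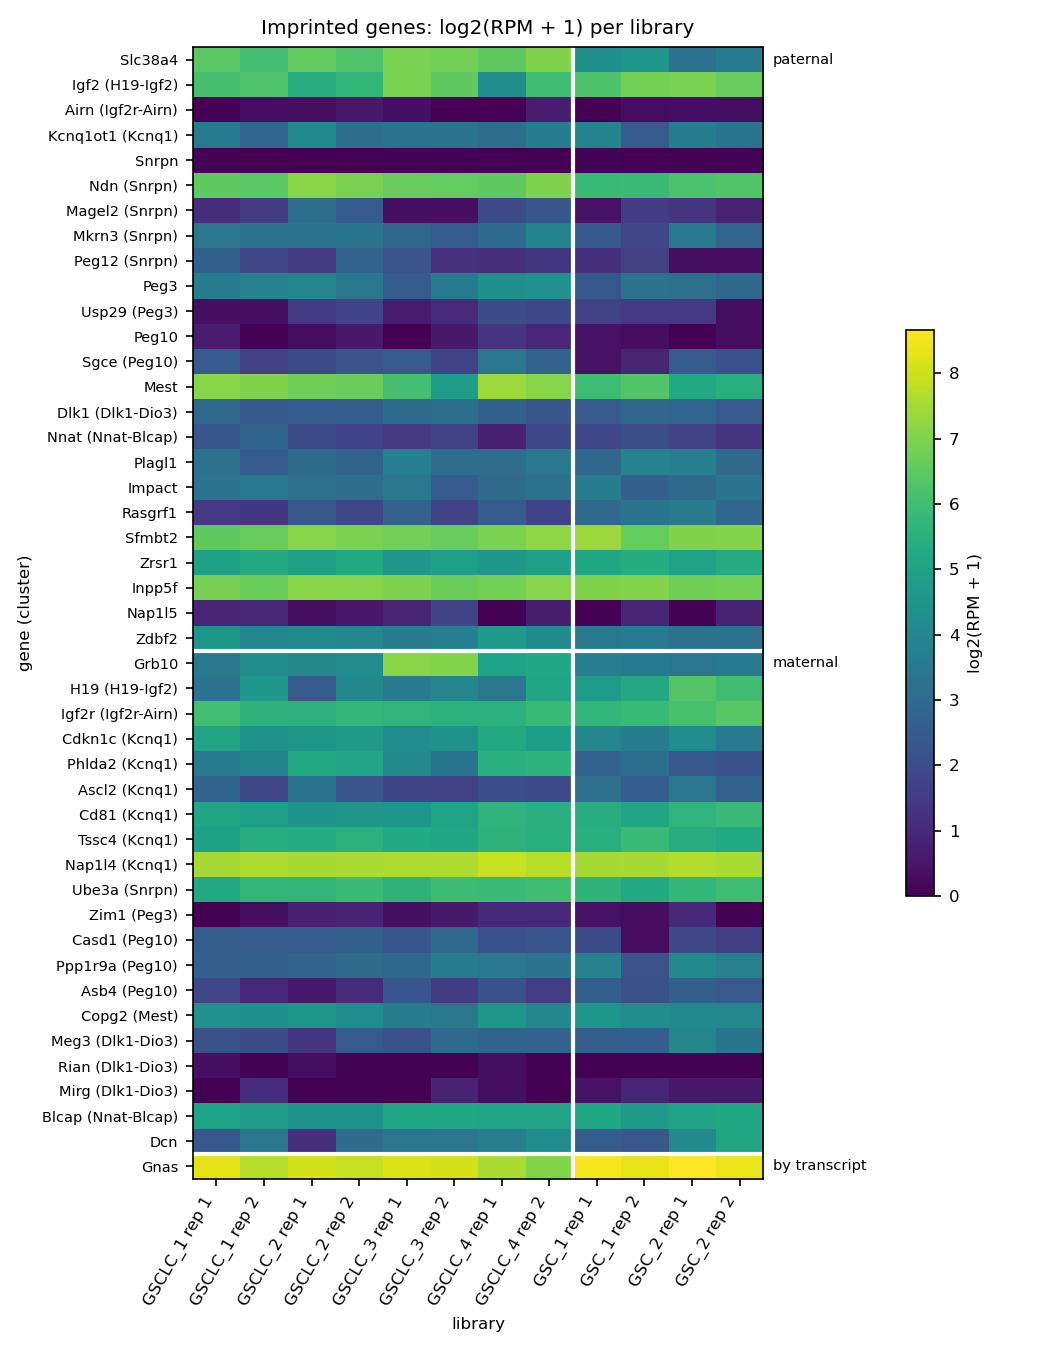
Level of each of the 45 imprinted genes as log2(RPM + 1) (colour) in the 12 libraries (columns, GSCLC left of GSC), with genes in rows by expressed parental allele and cluster. Slc38a4 is bright in the 8 GSCLC libraries and dim in the 4 GSC libraries, Grb10 is brightest in the 2 GSCLC_3 libraries, and Snrpn, Airn and Rian are dark in all 12.

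Of the 45 members, 35 reached 5 RPM in at least 2 libraries and were tested, with limma on log2(RPM + 1) together with 11788 genes in all. The 10 others were Snrpn, Magel2, Usp29, Zim1, Peg10, Nnat, Nap1l5, Airn, Rian and Mirg, whose highest value was 7.77 RPM, that of Magel2 in replicate 1 of GSCLC_2. Airn, the antisense RNA of the Igf2r cluster, Rian, a host RNA of small nucleolar RNAs, and Snrpn stayed under the value of 3 reads in all 12 libraries. Log2 changes are differences of log2(RPM + 1), a scale that shrinks the change of low genes, and they are given ± SE with p-values adjusted by the Benjamini-Hochberg method over all genes tested.

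Among the paternally expressed members, Slc38a4, which encodes a sodium-coupled amino acid transporter prominent in placenta, had the largest difference between the kinds of line. It lies at chr15:96994816-97055956. GSCLC_1 had 85.9 and 66.9 RPM, GSCLC_2 95.5 and 75.9 RPM, GSCLC_3 120 and 114 RPM and GSCLC_4 91.9 and 130 RPM, against 19.6 and 22.6 RPM in GSC_1 and 8.62 and 11.2 RPM in GSC_2. The lowest GSCLC library was thus above the highest GSC library, and the GSC_2 libraries were the lowest of all. The line means were 97.6 ± 19.7 RPM in GSCLC lines (SD, n = 4) and 15.5 ± 7.89 RPM in GSC lines (SD, n = 2), and the log2 change of 2.64 ± 0.26 passed the test with limma (adjusted p = 0.000831). As these are bulk cultures, a different share of cells that express a gene and a different amount of RNA per cell cannot be told apart. Some markers of other cells also differed between the kinds of line. The macrophage and endothelium sum of every GSC library was above that of every GSCLC library. Of its 4 tested markers, Fcer1g alone was called (log2 -3.35 ± 0.46, limma adjusted p = 0.00436). Fcer1g had 4.31 to 18.9 RPM in GSC libraries and at most 0.571 RPM in GSCLC libraries. Ptprc went the other way, with a mean of 2.48 RPM in GSCLC lines and 1.53 RPM in GSC lines. The fibroblast and mesenchyme sums of GSC_2, but not those of GSC_1, were above all GSCLC libraries. The part of these cells in the level of Slc38a4 was not tested.

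The genes around Slc38a4 had smaller differences. Slc38a2, a related amino acid transporter gene on the side of the lower coordinates, averaged 73.7 to 95.7 RPM in GSCLC lines and 69.4 to 76.1 RPM in GSC lines (log2 0.28 ± 0.15, limma adjusted p = 0.376). Amigo2, a cell adhesion gene on the other side, averaged 11.2 to 25.2 RPM in GSCLC lines and 20.1 to 22 RPM in GSC lines (log2 -0.37 ± 0.30, limma adjusted p = 0.577). Over the 30 tested genes within 2 Mb the median log2 change was 0.08, and none changed as much as Slc38a4. Among them, 3 were called higher and 1 lower (Cacnb3, Col2a1, Rapgef3 and Tmem106c).

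**Figure D2:**
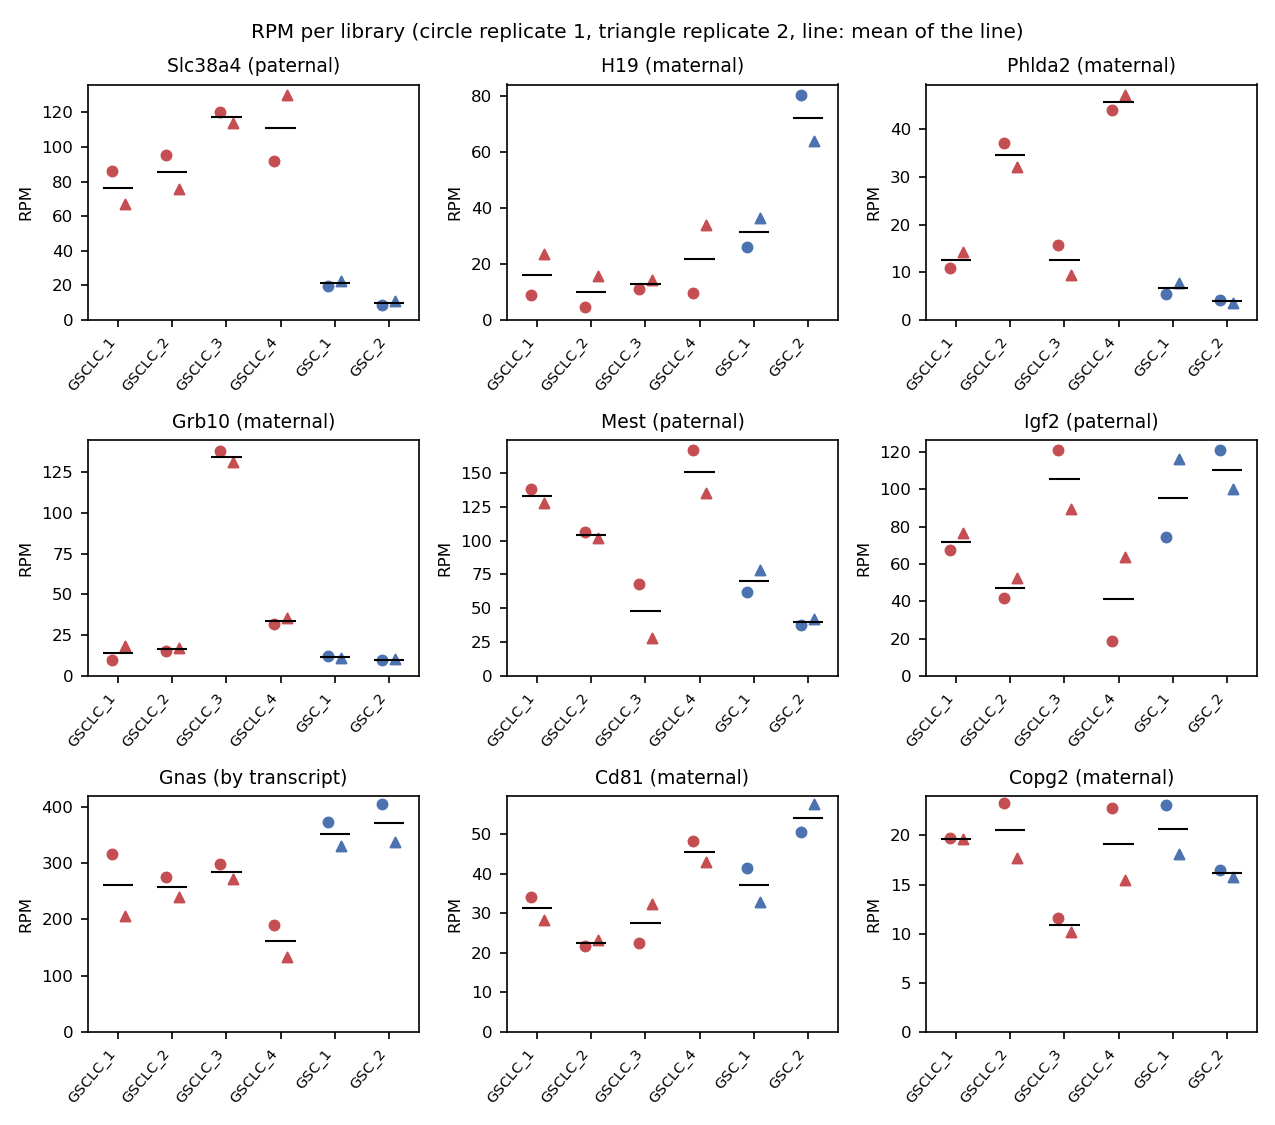
RPM per library of the 9 imprinted genes past the threshold in at least 1 comparison (y axis from 0; x axis: the 6 lines; circles replicate 1, triangles replicate 2, bars the mean of a line; GSCLC red, GSC blue). Slc38a4 lies between 66.9 and 130 RPM in GSCLC and between 8.62 and 22.6 RPM in GSC libraries, and Grb10 reaches 138 and 131 RPM in GSCLC_3.

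H19 and Igf2 share enhancers and one control region that sperm carry methylated, and they are usually expressed from opposite parental copies. H19, a maternally expressed non-coding RNA at chr7:142575530-142578146, was lower in GSCLC lines. Its libraries had 8.84 and 23.4 RPM in GSCLC_1, 4.51 and 15.7 RPM in GSCLC_2, 11 and 14.3 RPM in GSCLC_3 and 9.77 and 34 RPM in GSCLC_4, against 26.1 and 36.4 RPM in GSC_1 and 80.2 and 64 RPM in GSC_2. The line means did not overlap, at 10.1 to 21.9 RPM in GSCLC lines and 31.2 and 72.1 RPM in GSC lines, but single libraries did: replicate 2 of GSCLC_4 was above replicate 1 of GSC_1. The log2 change was -1.77 ± 0.34 (limma adjusted p = 0.019). This call was lost without GSC_2 (adjusted p = 0.331) and without replicate 1 of GSCLC_4 (adjusted p = 0.0923), and also with no filter on low values (0.0816), without the variance trend (0.0695) and with replicate 2 libraries only (0.109). Over the 53 tested genes within 2 Mb of H19 the median log2 change was -0.15. Brsk2, at -1.78, and Phlda2, at 1.94, changed at least as much as H19. Brsk2, Cd151, Ctsd and Pnpla2 were called lower in GSCLC lines there, and Ifitm1 higher.

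The level of H19 moved with the markers of other cells in part. Replicate 2 had more H19 than replicate 1 in all 4 GSCLC lines, and the fibroblast and mesenchyme sum was also higher in replicate 2 of each, with 625 and 760 RPM in GSCLC_1, 614 and 791 RPM in GSCLC_2, 691 and 882 RPM in GSCLC_3, and 810 and 1018 RPM in GSCLC_4. GSC_2, the line with the most H19, had 1314 and 1400 RPM of these markers, against 800 and 720 RPM in GSC_1. Within both GSC lines the replicates went the other way, with more H19 where the marker sum was lower. H19 was at 26.1 and 36.4 RPM in replicates 1 and 2 of GSC_1 and at 80.2 and 64 RPM in those of GSC_2. The sum for GSC_1 lay inside the range of GSCLC lines, and its H19 mean of 31.2 RPM was above each GSCLC line mean. Of the steroidogenic genes, Hsd3b1 was at 0 RPM in all 8 GSCLC libraries, against 34.2 and 2.8 RPM in GSC_1 and 36.7 and 3.83 RPM in GSC_2. Cyp11a1 had at most 0.751 RPM in a GSCLC library, against 36.2 and 3.23 RPM in GSC_1 and 60.1 and 2.3 RPM in GSC_2. Both were far higher in replicate 1 than in replicate 2 of each GSC line, while H19 was higher in replicate 2 of GSC_1 and in replicate 1 of GSC_2. Insl3, another Leydig gene, averaged 3.27 RPM in GSCLC lines and 1.38 RPM in GSC lines. Among the 21 fibroblast and mesenchyme markers, Col5a1 (log2 -1.13, adjusted p = 0.00777) and Sparc (log2 -1.09, adjusted p = 0.0463) were called lower and Twist1 (log2 0.85, adjusted p = 0.0124) higher in GSCLC lines with limma. The part of these cells in the level of H19 was not tested.

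Igf2, the paternally expressed fetal growth factor at chr7:142650768-142666816, did not pass the test between kinds of line. It had 67.3 and 76.4 RPM in GSCLC_1, 41.6 and 52.2 RPM in GSCLC_2, 121 and 89.5 RPM in GSCLC_3 and 18.5 and 63.7 RPM in GSCLC_4, against 74.3 and 116 RPM in GSC_1 and 121 and 100 RPM in GSC_2. The libraries overlapped, and both GSCLC_3 libraries lay within the GSC range (log2 -0.77 ± 0.33, limma adjusted p = 0.263). Of the 54 tested genes within 2 Mb, 7 changed at least as much. Against the other 3 GSCLC lines, Igf2 was higher in GSCLC_3 (1.08 ± 0.28, limma adjusted p = 0.0228), a call lost without replicate 1 (adjusted p = 0.221) or 2 (0.0762) of GSCLC_3, without replicate 1 of GSCLC_2 (0.0511), with no filter on low values (0.149) or without the variance trend (0.136). It was lower in GSCLC_4 (-1.01 ± 0.28, limma adjusted p = 0.0395), where replicate 1 had 18.5 RPM and replicate 2 had 63.7 RPM. Without replicate 1 of GSCLC_4 the change was -0.14 with adjusted p = 0.797, and 6 other libraries left out singly gave adjusted p = 0.0514 to 0.0806. They were both libraries of GSC_2, both of GSCLC_1, replicate 2 of GSCLC_2 and replicate 1 of GSCLC_3. The last bases of Igf2 overlap an annotated gene, Gm49394, on the same strand, so reads of both may not have been told apart.

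**Figure D3:**
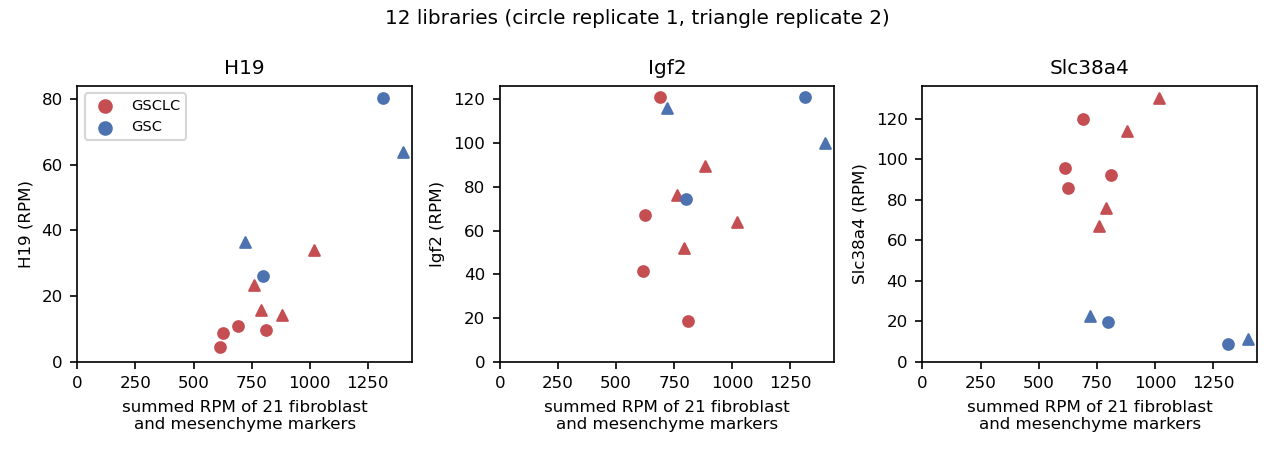
H19, Igf2 and Slc38a4 in RPM (y axes) against the summed RPM of 21 fibroblast and mesenchyme markers (x axes) in the 12 libraries (GSCLC red, GSC blue, circles replicate 1, triangles replicate 2). The 2 GSC_2 libraries, at 1314 and 1400 RPM of markers, have the highest H19 and the lowest Slc38a4.

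Members of the other clusters marked in sperm did not pass the test between the kinds of line. Of the Dlk1-Dio3 cluster, the non-coding RNA Meg3 is usually maternal and Dlk1, an EGF-like transmembrane protein, paternal. Meg3 had 3.42 and 3.07 RPM in GSCLC_1, 1.5 and 4.43 RPM in GSCLC_2, 3.39 and 6.74 RPM in GSCLC_3 and 5.76 and 5.61 RPM in GSCLC_4, against 5.22 and 4.95 RPM in GSC_1 and 14.8 and 9.44 RPM in GSC_2 (log2 -0.83 ± 0.39, limma adjusted p = 0.306). GSC_2 stood above all other lines, as it did for H19, and the end of Meg3 overlaps Gm26906 on the opposite strand. Dlk1 averaged 4.73 to 7.58 RPM in GSCLC lines and 5.25 and 5.4 RPM in GSC lines, and Rian and Mirg, host RNAs of small RNAs in the same cluster, did not exceed 0.285 and 1.18 RPM in any library. Rasgrf1, a guanine nucleotide exchange factor for Ras expressed from the paternal copy, averaged 1.68 to 4.04 RPM in GSCLC lines and 7.94 and 8.6 RPM in GSC lines, with no overlap of libraries (log2 -1.20 ± 0.35, limma adjusted p = 0.0924). Zdbf2, a zinc finger gene of the paternal copy, averaged 12.1 to 20.4 RPM in GSCLC lines and 8.64 and 10.8 RPM in GSC lines, again without overlap of libraries (log2 0.70 ± 0.25, limma adjusted p = 0.18).

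Paternally expressed genes of the oocyte-marked clusters other than Slc38a4 did not pass the test between the kinds of line. In the Snrpn cluster, Ndn, a growth suppressor of the MAGE family, averaged 89.1 to 129 RPM in GSCLC lines and 58 and 75.7 RPM in GSC lines. Every GSCLC library of Ndn was above every GSC library, and the log2 change of 0.66 ± 0.17 did not pass the test with limma (adjusted p = 0.0668). Mkrn3, a makorin ring finger gene, averaged 5.54 to 10.7 RPM in GSCLC lines and 3.41 and 8.23 RPM in GSC lines. Peg12, a FRAT family regulator of WNT signalling, averaged 1.45 to 4.01 RPM in GSCLC lines and 0.251 and 1.73 RPM in GSC lines. Neither passed the test, and the maternally expressed ubiquitin ligase gene of the cluster, Ube3a, imprinted in neurons, averaged 44.2 to 61.2 RPM in GSCLC lines and 42.6 and 56.7 RPM in GSC lines. Snrpn itself, a splicing protein gene, was listed at 0.0253 and 0.00403 RPM in GSCLC_1, 0.0189 and 0.00162 RPM in GSCLC_2, 0.00148 and 0.00401 RPM in GSCLC_3 and 0.0189 and 0.000575 RPM in GSCLC_4, against 0.0247 and 0.00152 RPM in GSC_1 and 0.0049 and 0.00295 RPM in GSC_2. All of these lie far under the value of 3 reads, and no fold is given. Snurf, which starts its RefSeq span at the same coordinate of chromosome 7 (59982495) as Snrpn, had 7.75 to 23.1 RPM, so reads at this shared end may have been given to Snurf and the value of Snrpn is uncertain. Between the kinds of line Snurf did not pass the test (log2 -0.28 ± 0.29, limma adjusted p = 0.673). It averaged 8.83 RPM in GSCLC_2, against 16.1 to 19.2 RPM in the other GSCLC lines, and was called lower there (-0.95 ± 0.24, limma adjusted p = 0.0487).

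Peg3, a zinc finger gene expressed from the paternal copy, had 11.7 and 13.2 RPM in GSCLC_1, 14.3 and 10.2 RPM in GSCLC_2, 4.81 and 10.5 RPM in GSCLC_3 and 19.3 and 20.1 RPM in GSCLC_4, against 4.24 and 8.4 RPM in GSC_1 and 8.12 and 6.38 RPM in GSC_2. GSCLC_4 was the highest line and GSCLC_3 overlapped the GSC lines (log2 0.79 ± 0.34, limma adjusted p = 0.256). In the Peg10 cluster, Sgce, which encodes epsilon-sarcoglycan, averaged 3.35 to 7.69 RPM in GSCLC lines and 0.594 and 4 RPM in GSC lines. Peg10 itself, a placental gene derived from a retrotransposon, did not exceed 1.5 RPM. Among the single-gene loci, the Polycomb-group gene Sfmbt2 averaged 96.5 to 133 RPM in GSCLC lines and 129 and 130 RPM in GSC lines. The inositol phosphatase gene Inpp5f averaged 111 to 137 RPM in GSCLC lines and 112 and 130 RPM in GSC lines, a value that includes its unimprinted transcripts. Zrsr1, a retrogene related to U2AF, averaged 25.5 to 33.6 RPM in GSCLC lines and 35.5 and 37.2 RPM in GSC lines, and the transcription factor gene Plagl1 averaged 6.51 to 9.99 RPM in GSCLC lines and 9.47 and 10.1 RPM in GSC lines. The translation regulator gene Impact averaged 7.38 to 9.62 RPM in GSCLC lines and 7.91 and 8.23 RPM in GSC lines.

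The Kcnq1 cluster is silenced on the paternal copy by the non-coding RNA Kcnq1ot1, which averaged 8.49 to 12.2 RPM in GSCLC lines and 9.27 and 10.5 RPM in GSC lines (log2 0.04 ± 0.26, limma adjusted p = 0.964). Of its maternally expressed genes, Phlda2, whose PH-domain protein limits growth of the placenta, had 10.8 and 14.2 RPM in GSCLC_1, 37.1 and 32.1 RPM in GSCLC_2, 15.8 and 9.43 RPM in GSCLC_3 and 44.1 and 47.2 RPM in GSCLC_4, against 5.54 and 7.75 RPM in GSC_1 and 4.18 and 3.57 RPM in GSC_2. Every GSCLC library lay above every GSC library, yet the level differed between GSCLC lines and the log2 change of 1.94 ± 0.48 did not pass the test with limma (adjusted p = 0.0523). GSCLC_4 (condition 1) and GSCLC_2 (condition 2) were the high lines. Without GSCLC_3 the change was 2.21 with adjusted p = 0.0157.

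Cdkn1c, an inhibitor of cyclin-dependent kinases in the same cluster, averaged 18.9 to 32.8 RPM in GSCLC lines and 13.1 and 14.1 RPM in GSC lines (log2 0.84 ± 0.23, limma adjusted p = 0.0773). Ascl2, a transcription factor of the trophoblast, averaged 2.49 to 6.47 RPM in GSCLC lines and 6.55 and 7.61 RPM in GSC lines (log2 -0.73 ± 0.35, limma adjusted p = 0.324). Cd81, a tetraspanin gene, had 34.2 and 28.4 RPM in GSCLC_1, 21.6 and 23.2 RPM in GSCLC_2, 22.6 and 32.3 RPM in GSCLC_3 and 48.3 and 42.9 RPM in GSCLC_4, against 41.4 and 32.9 RPM in GSC_1 and 50.5 and 57.7 RPM in GSC_2. By line means, GSCLC_4 lay within the range of the GSC lines and the other 3 GSCLC lines below it. Nap1l4, a histone chaperone gene at the edge of the cluster, averaged 187 to 228 RPM in GSCLC lines and 181 and 193 RPM in GSC lines, and Tssc4 averaged 35.5 to 45.8 RPM in GSCLC lines and 39.4 and 49.8 RPM in GSC lines. Over the 25 tested genes within 2 Mb of Phlda2 the median log2 change between the kinds of line was -0.23, and none changed as much as Phlda2.

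None of the remaining maternally expressed members passed the test between the kinds of line. Igf2r, the receptor that clears IGF2 from the cell surface, had 65.1 and 47.3 RPM in GSCLC_1, 46.9 and 52.2 RPM in GSCLC_2, 50.3 and 45.6 RPM in GSCLC_3 and 45.3 and 58.1 RPM in GSCLC_4, against 52.2 and 58.1 RPM in GSC_1 and 69.2 and 84.2 RPM in GSC_2. GSC_2 was above every other library and GSC_1 lay inside the GSCLC range (log2 -0.34 ± 0.17, limma adjusted p = 0.322). Casd1, a sialic acid O-acetyltransferase gene near Peg10, averaged 3.73 to 5.35 RPM in GSCLC lines and 1.57 and 2.37 RPM in GSC lines (log2 1.07 ± 0.35, limma adjusted p = 0.142). Asb4, an ankyrin repeat gene of the same cluster, averaged 0.772 to 2.92 RPM in GSCLC lines and 4.33 and 4.75 RPM in GSC lines, and Ppp1r9a, which encodes neurabin, averaged 5.29 to 9.46 RPM in GSCLC lines and 8.51 and 14.6 RPM in GSC lines. Blcap, a small membrane protein gene, averaged 20.7 to 33 RPM in GSCLC lines and 29.8 and 33.1 RPM in GSC lines, while its partner Nnat did not exceed 5.91 RPM. Dcn, a matrix proteoglycan of connective tissue, averaged 4.28 to 14.8 RPM in GSCLC lines and 4.49 and 25.1 RPM in GSC lines, with the highest level in GSC_2, where the fibroblast sum was also highest.

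Gnas, the stimulatory G protein alpha subunit, has maternal, paternal and biallelic transcripts that share their 3′ end, which overlaps Gm20721 on the opposite strand. It had 316 and 207 RPM in GSCLC_1, 276 and 240 RPM in GSCLC_2, 298 and 272 RPM in GSCLC_3 and 190 and 133 RPM in GSCLC_4, against 374 and 330 RPM in GSC_1 and 405 and 338 RPM in GSC_2. Every GSCLC library was below every GSC library, and GSCLC_4 was the lowest line, but the log2 change of -0.62 ± 0.19 between the kinds of line did not pass the test with limma (adjusted p = 0.12). Nespas, the non-coding RNA beside it, averaged 3.54 to 6.64 RPM in GSCLC lines and 1.89 and 2.38 RPM in GSC lines (log2 0.84 ± 0.36, limma adjusted p = 0.27). Th1l, the next gene on the other side, averaged 121 to 130 RPM in GSCLC lines and 108 and 118 RPM in GSC lines (log2 0.15 ± 0.12, limma adjusted p = 0.569).

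Between GSCLC and GSC lines, 2 of the 35 tested members were called, Slc38a4 higher and H19 lower, which is 5.71% of the members against 3.02% of all 11788 genes tested (1.21% higher and 1.81% lower). A gene could pass the filter on low values through one kind of line alone, so the counts that follow are descriptions. At an unadjusted p under 0.05 there were 14 members, against 16.9% of all genes. Of the 17 tested paternal members, 12 were positive, with a median log2 change of 0.07, and of the 17 tested maternal members 6 were positive, with a median of -0.15. These classes include members marked as imprinted only in some tissues or transcripts. Without those, 11 of 16 tested paternal members were positive (median 0.32) and 3 of 8 tested maternal members (median -0.54). Over all genes the median was -0.01 and 49.2% were positive. The median size of the change regardless of sign was 0.624 over the tested members and 0.211 over all genes. The line means of the log2 values did not overlap between GSCLC and GSC for 13 of the 35 members, against 28.6% of all genes tested. In GSCLC lines, Slc38a4, Grb10, Cdkn1c, Phlda2, Ndn, Casd1 and Zdbf2 lay above GSC lines, and H19, Ascl2, Asb4, Gnas, Rasgrf1 and Zrsr1 below. Summed over the 24 paternal members, GSCLC lines had 736 ± 51.7 RPM (SD, n = 4) and GSC lines 600 ± 17 RPM (SD, n = 2). Over the 20 maternal members the sums were 571 ± 79.1 RPM in GSCLC lines and 574 ± 89.8 RPM in GSC lines, and these sums were not tested. Single genes weigh heavily on them. Slc38a4 gave 97.6 RPM of the paternal sum in GSCLC lines and 15.5 RPM in GSC lines. Members marked as imprinted only in some tissues or transcripts are included, such as Inpp5f (122 and 121 RPM) and the maternal Nap1l4 (199 and 187 RPM). The sums thus do not describe the parental classes as a whole.

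**Figure D4:**
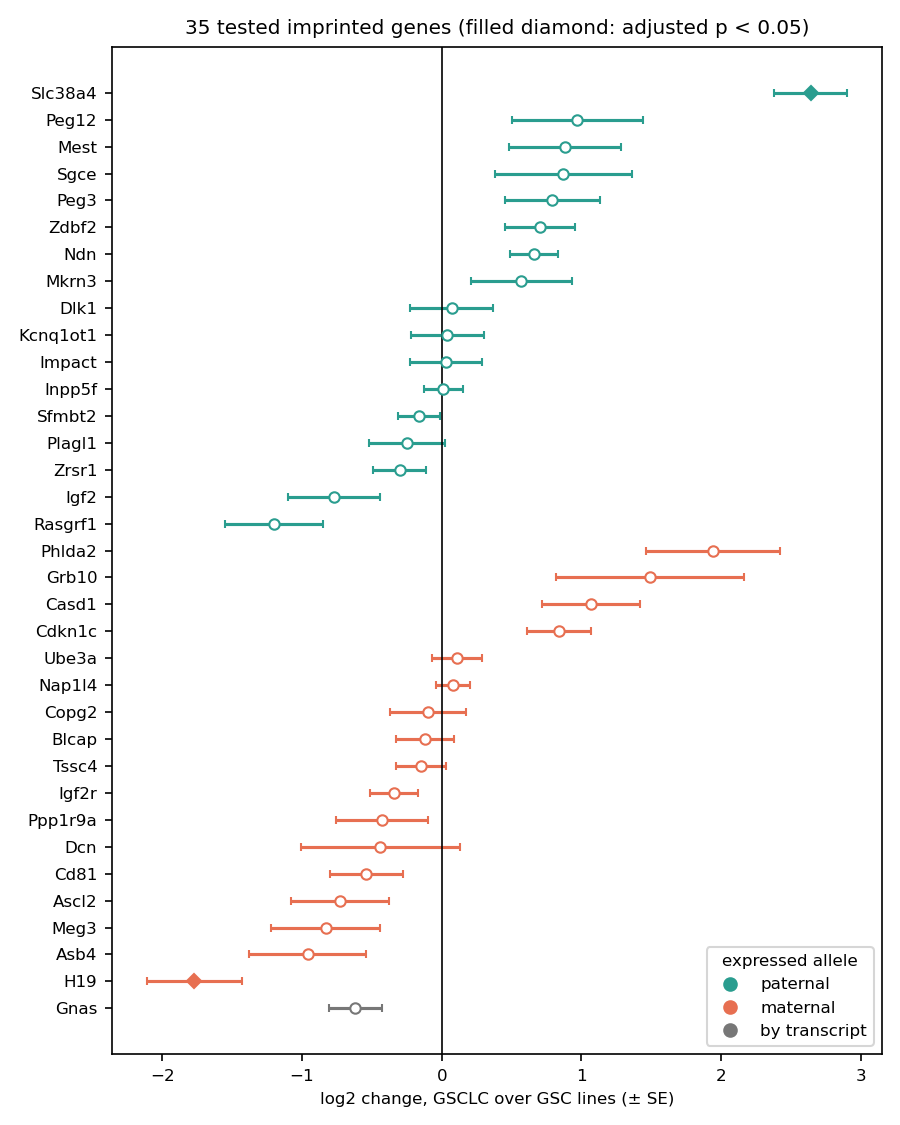
Log2 change of log2(RPM + 1), GSCLC over GSC lines, with SE bars from limma (x axis) for the 35 tested imprinted genes (y axis), coloured by expressed parental allele; filled diamonds passed the adjusted threshold of 0.05. Slc38a4 (2.64) and H19 (-1.77) passed, and Phlda2 (1.94), Grb10 (1.49) and Rasgrf1 (-1.20) were the next in size.

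The GSCLC lines differed among themselves in 6 of the 35 tested members by limma's F test, namely Grb10, Phlda2, Mest, Gnas, Igf2 and Cd81, which is 17.1% against 9.14% of all genes. Grb10, a maternally expressed adaptor that dampens signalling from insulin and other growth factor receptors, had the largest difference. It lies at chr11:11930499-12037428. It had 138 and 131 RPM in GSCLC_3, against 9.99 and 18.4 RPM in GSCLC_1, 15.3 and 17.2 RPM in GSCLC_2 and 31.8 and 35.6 RPM in GSCLC_4, and 12.1 and 11 RPM in GSC_1 and 9.6 and 10.5 RPM in GSC_2. Both GSCLC_3 libraries were far above the rest and those of GSCLC_4 came next, while GSCLC_1 overlapped the GSC lines and GSCLC_2 lay just above them. GSCLC_3 exceeded the mean of the other 3 GSCLC lines by 6.27-fold in RPM, and the log2 change was 2.71 ± 0.22 (limma adjusted p = 1.33e-07). Grb10 was also the 1 member of 35 called in GSCLC_1 (-1.56 ± 0.22, limma adjusted p = 0.00132; 0.458% of all genes were called, 0.195% lower) and the 1 called in GSCLC_2 (-1.25 ± 0.22, limma adjusted p = 0.00567; 1.7% of all genes, 0.865% lower), each set against a mean that holds GSCLC_3. The call in GSCLC_1 was lost without its replicate 1 (adjusted p = 0.245), and that in GSCLC_2 without its replicate 1 (0.184) or 2 (0.0578). Between GSCLC and GSC lines the change was 1.49 ± 0.67 (limma adjusted p = 0.281).

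The genes beside Grb10 were low. Ddc, an enzyme of dopamine synthesis in the same imprinted domain, averaged 2.29 to 5.05 RPM in GSCLC lines and 3.63 and 3.87 RPM in GSC lines, and Cobl, an actin nucleator gene on the other side, 0.615 to 1.86 RPM in GSCLC lines and 1.08 and 1.13 RPM in GSC lines. Neither was tested. The 2 tested genes within 2 Mb had a median change of -0.63 in GSCLC_3, against 2.71 for Grb10, and Fignl1 was called lower there. The 2 starts shown above, with 45 and 9 CG, are not separated by the 3′ reads.

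In GSCLC_3, 5 of the 35 tested members were called against the mean of the other 3 GSCLC lines, 14.3% against 7.63% of all genes (2.5% higher and 5.12% lower), with Grb10 and Igf2 higher and Mest, Phlda2 and Copg2 lower. Mest, an alpha/beta hydrolase gene expressed from the paternal copy, lies at chr6:30733506-30748466. It had 67.8 and 28.3 RPM in GSCLC_3, against 138 and 128 RPM in GSCLC_1, 106 and 102 RPM in GSCLC_2 and 167 and 135 RPM in GSCLC_4, and 61.9 and 78.6 RPM in GSC_1 and 37.7 and 41.8 RPM in GSC_2. The GSCLC_3 libraries were below all other GSCLC libraries, inside or below the range of the GSC lines, and the change was -1.52 ± 0.21 (limma adjusted p = 0.00018). Copg2, a coatomer subunit gene whose end overlaps that of Mest on the opposite strand, had 11.6 and 10.2 RPM in GSCLC_3, against 19.7 and 19.6 RPM in GSCLC_1, 23.3 and 17.7 RPM in GSCLC_2 and 22.8 and 15.5 RPM in GSCLC_4, and 23.1 and 18.1 RPM in GSC_1 and 16.5 and 15.8 RPM in GSC_2. Both GSCLC_3 libraries were the lowest of the 12 (-0.79 ± 0.22, limma adjusted p = 0.0349). This call was lost with 6 of the 12 libraries left out singly, both of GSCLC_1, both of GSCLC_3, replicate 1 of GSCLC_2 and replicate 1 of GSCLC_4 (adjusted p = 0.0587 to 0.209), and with no filter on low values (0.0736), quantile normalisation (0.0735) or median-of-ratios scaling (0.0559). As no source used here says whether counts were split by strand, reads at this shared end may belong to either gene.

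Over 28 tested genes within 2 Mb of Mest the median change in GSCLC_3 was -0.06. Copg2 and Ccdc136 were called lower there, and none changed as much as Mest. Over the 541 tested genes of chromosome 6, where both genes lie, the median was -0.34 in GSCLC_3, against -0.17 in GSCLC_1, 0.20 in GSCLC_2 and 0.31 in GSCLC_4. Over all tested genes the median was -0.09 in GSCLC_3 and 0.11 in GSCLC_4. Tsga14, the neighbour of Mest on the other side, averaged 27.2 RPM in GSCLC_3, against 30.1 to 36.7 RPM in the other GSCLC lines and 29 and 31.3 RPM in the GSC lines. Phlda2 was lower in GSCLC_3 (-1.08 ± 0.25, limma adjusted p = 0.0105), a call lost without replicate 2 of GSCLC_3 (adjusted p = 0.207).

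In GSCLC_4, 5 of the 35 tested members were called, 14.3% against 6.53% of all genes (4.45% higher and 2.08% lower). Phlda2 (1.33 ± 0.25, limma adjusted p = 0.00587), Mest (0.82 ± 0.21, limma adjusted p = 0.0273) and Cd81 (0.75 ± 0.18, limma adjusted p = 0.0215) were higher than in the mean of the other GSCLC lines. Gnas (-0.74 ± 0.15, limma adjusted p = 0.0103) and Igf2 were lower. Without replicate 1 of GSCLC_4 the calls of Phlda2 (adjusted p = 0.0816), Mest (0.258) and Cd81 (0.216) were lost, and without its replicate 2 those of Gnas (0.132) and Cd81 (0.0538). The call of Mest was also lost without replicate 2 of GSCLC_1 (0.0564) or of GSCLC_2 (0.0565) and with quantile normalisation (0.0504) or median-of-ratios scaling (0.0526). With no filter on low values or without the variance trend, Phlda2 was the 1 member called in GSCLC_4. Of the 35, 26 were positive in GSCLC_4, as were 62.4% of all genes. Within 2 Mb of Gnas the median over 17 tested genes was 0.10 and none changed as much as Gnas. GSCLC_4 also had a Sertoli marker sum of 135 and 124 RPM, against 36.9 to 65.7 RPM in the other GSCLC libraries, mainly from Rhox5 at a mean of 68.8 RPM, and its fibroblast sum averaged 914 RPM, against 693 to 787 RPM in the other GSCLC lines. Rhox5 was the 1 of 5 tested Sertoli markers called in GSCLC_4, so the sum alone does not tell whether Sertoli cells were present, which was not tested. The part of any other cells in the called members of GSCLC_4 was not tested.

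**Figure D5:**
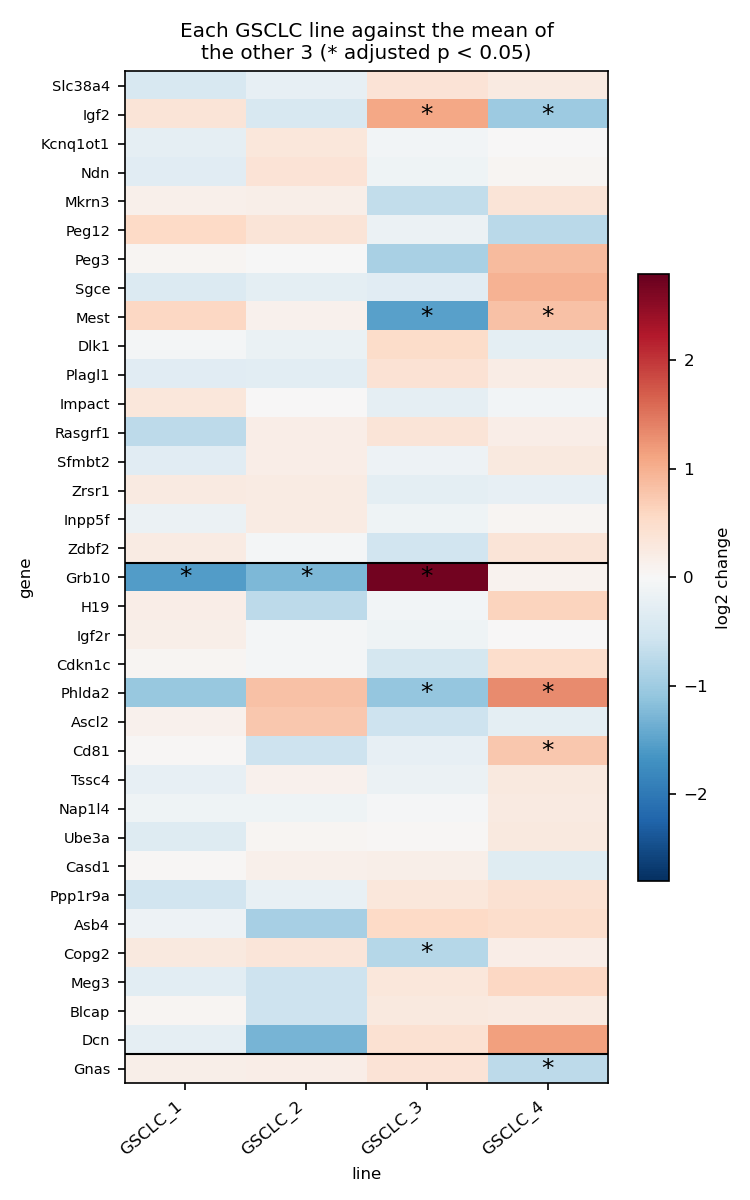
Log2 change of each GSCLC line against the mean of the other 3 (colour, one column per line) for the 35 tested imprinted genes (rows: paternal, maternal and Gnas from top to bottom); asterisks mark adjusted p under 0.05. Grb10 is high in GSCLC_3 (2.71) and Mest low (-1.52), and Phlda2 is low in GSCLC_3 (-1.08) and high in GSCLC_4 (1.33).

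The culture conditions of the reconstituted testes gave no call among the imprinted genes. Between condition 2 and condition 1 lines, limma called 0 of 35 members and 0% of all genes. At an unadjusted p under 0.05 there were 2 members, Mest (-1.05 ± 0.36) and Cd81 (-0.60 ± 0.26), and 552 of all genes. The smallest adjusted p over all genes was 0.933. Mest averaged 104 and 48.1 RPM in the condition 2 lines, GSCLC_2 and GSCLC_3, and 133 and 151 RPM in the condition 1 lines, GSCLC_1 and GSCLC_4. Grb10 averaged 16.3 and 134 RPM in the condition 2 lines and 14.2 and 33.7 RPM in the condition 1 lines, so that GSCLC_3 stood apart from the other line of its own condition. With GSCLC_2 left out, Grb10 was called between the conditions, as GSCLC_3 was then the 1 line of condition 2.

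Between GSC_2 and GSC_1, both from postnatal testes, limma called 0 of 35 members against 0.0509% of all genes, and 12 members had an unadjusted p under 0.05, against 6.74% of all genes. Among these, the log2 difference of GSC_2 over GSC_1 was positive for Dcn (2.17 ± 0.49, limma adjusted p = 0.185), Sgce (1.67 ± 0.48, limma adjusted p = 0.362), H19 (1.19 ± 0.50, limma adjusted p = 0.665) and Meg3 (1.08 ± 0.44, limma adjusted p = 0.659). It was negative for Slc38a4 (-1.02 ± 0.21, limma adjusted p = 0.118) and Mest (-0.80 ± 0.26, limma adjusted p = 0.436). None of these passed the test. Without replicate 1 of GSCLC_2, Dcn passed. This library belongs to neither GSC line and enters their comparison through the spread, the filter on low values and the adjustment of p-values.

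Of 24 genes in the table whose products set, keep or erase imprints, 19 were tested and limma called 0 between GSCLC and GSC lines, with 2 at an unadjusted p under 0.05, against 16.9% of all genes. Their sum was 2058 to 2321 RPM in GSCLC libraries and 2099 to 2259 RPM in GSC libraries. Dnmt1, the maintenance DNA methyltransferase, averaged 283 RPM in GSCLC lines and 314 RPM in GSC lines, and its partner Uhrf1 averaged 200 RPM in GSCLC lines and 239 RPM in GSC lines. Trim28, the corepressor recruited by ZFP57, averaged 585 RPM in GSCLC lines and 579 RPM in GSC lines, while Zfp57 itself was low, at 2.5 RPM in GSCLC lines and 1.27 RPM in GSC lines, and was not tested. Zfp445, another imprint-keeping zinc finger gene, averaged 29.5 RPM in GSCLC lines and 18.5 RPM in GSC lines (log2 0.64, limma adjusted p = 0.116). In GSCLC_4, 3 of these 19 were called against the other GSCLC lines, as were 6.53% of all genes: Tet3, a 5-methylcytosine oxidase (0.97 ± 0.27, limma adjusted p = 0.0373), and Ehmt2, a histone H3K9 methyltransferase (0.49 ± 0.12, limma adjusted p = 0.0234), were higher, and Trim28 (-0.43 ± 0.11, limma adjusted p = 0.0212) was lower.

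Of 28 further imprinted genes in the table that are not among the 45, 10 were tested, and limma called 0 between GSCLC and GSC lines, with 2 at an unadjusted p under 0.05, against the same 16.9% of all genes. Rtl1, Th, Ins2 and Slc22a3 were at 0 in all 12 libraries. Gab1, an adaptor of receptor tyrosine kinases imprinted in placenta, was the 1 of the 10 called in GSCLC_3, where 7.63% of all genes were called, and was higher there, with a mean of 63.3 RPM against 38.7 RPM in the other GSCLC lines (0.72 ± 0.18, limma adjusted p = 0.016). Gab1 lies on chromosome 8, whose 631 tested genes had a median change of 0.40 in GSCLC_3, against -0.09 over all tested genes. The part of this wider shift in the level of Gab1 was not tested.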

How the data were processed

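The deposited values are RPM, which the authors scaled to one total per library: 26219 genes in 12 libraries, with columns summing to 999885 to 999962. The submitters' processing notes name cutadapt 1.3, TopHat 1.4.1, Cufflinks 2.2.0 and build mm10 (GRCm38), with neither roles nor settings in the sources used here. Between 99.7% and 99.8% of low values were whole multiples of one step within 0.1, but not all, so no count test was run. Floors of 3 reads cover counting error only, since amplified copies are not separate molecules.

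Values were taken as log2(RPM + 1), and the genes that reached 5 RPM in 2 or more libraries were fitted with limma 3.58.1 (mean-variance trend) in R 4.3.3. The fit of GSCLC against GSC lines was also run on simulated data. Line means entered the comparisons of GSCLC with GSC lines and of the conditions; the fit of the conditions also held the GSC lines, for a shared spread. Single libraries entered the comparisons of a line with the mean of the other 3 GSCLC lines, of GSC_2 with GSC_1, and the F test among GSCLC lines. P-values are two-sided and Benjamini-Hochberg adjusted, with 0.05 as threshold. Alternatives were other pseudocounts, filters, scalings and variance models, a replicate block, and leaving out libraries or lines. Members past the threshold in any comparison and Grb10, Slc38a4, H19, Igf2, Igf2r, Meg3, Snrpn and Peg3 are given per library; members of at least 5 RPM on average by line means. Members, gene lists and tests were chosen with earlier results of these data known. Coordinates and promoter windows are from RefSeq (GRCm38.p6) and end overlaps, over the last 300 bases, from GENCODE M21. Known imprinting of each gene is background knowledge, not measured here.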

Additional observations from a re-analysis of the deposited data

Results flagged for a closer look

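In 3 of the 35 tested members, 1 of the 4 GSCLC lines was flagged as apart from the other 3. The flag used line means of log2(RPM + 1) and took the gap to the nearest neighbour as a share of their whole range. This ratio was set against Dixon's critical value at the 95% level for 4 values. The RPM means given below are on another scale, so the ratios do not follow from them. Chance flags about 1 in 20 such sets of values. No share over all genes is given here, so the 3 flags are descriptions only. Sgce, the epsilon-sarcoglycan gene, was highest in GSCLC_4, at 7.69 RPM against 3.35 to 3.47 RPM in the other lines (ratio 0.912). Copg2, whose end overlaps Mest, was lowest in GSCLC_3, at 10.9 RPM against 19.1 to 20.5 RPM (ratio 0.873). Rasgrf1 was lowest in GSCLC_1, at 1.68 RPM against 3.44 to 4.04 RPM (ratio 0.842), a level near that of a few reads.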

How the results depend on the processing

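Between GSCLC and GSC lines, Slc38a4 passed in 29 of 29 alternatives (log2 2.13 to 3.15, adjusted p 7.19e-07 to 0.0145), H19 in 24 of 29 (log2 -2.37 to -1.18, adjusted p 0.00672 to 0.331) and Phlda2 in 10 of 29 (log2 1.46 to 2.26, adjusted p 0.00453 to 0.475). The count of called members, 2, was 1 with no filter on low values, without the variance trend and with replicate 2 libraries only, 4 with quantile normalisation, 5 with single libraries and the line as a random effect, and 6 when a replicate block was added to that. It ranged from 1 to 8 when libraries or lines were left out. It was 1, Slc38a4, without replicate 1 of GSCLC_4 or without GSC_2, 4 without replicate 1 of GSC_2, and 8 without GSCLC_3. The count between conditions, 0, ranged from 0 to 1 (Grb10 without GSCLC_2). In GSCLC_1 the count of 1 was 2 with a pseudocount of 5 and ranged from 0 to 2 with libraries left out. In GSCLC_2 it was 2 with a filter of 1 RPM and ranged from 0 to 2 with libraries left out. In GSCLC_3 the count of 5 was 6 with a filter of 1 RPM, adding Magel2, and ranged from 3 to 5 with libraries left out. In GSCLC_4 the count of 5 was 1 with no filter or no trend and ranged from 1 to 6 with libraries left out. Between the GSC lines it ranged from 0 to 1 with libraries left out. Among GSCLC lines the count of 6 was 3 without the trend, 4 with no filter and 7 with a filter of 1 RPM, adding Magel2, and ranged from 4 to 6 with libraries left out. The cause of these shifts was not tested, beyond the smaller number of samples. No share over all genes is given for the alternatives here or below. A change in these counts can thus not be told from a change in calls over all genes. Copg2 between GSCLC and GSC lines reversed to 0.07 without GSC_1 and 0.10 without GSCLC_3, ranged from -0.26 to 0.10 and passed in no setting.

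Libraries with the same replicate number shared little deviation (r from -0.122 to 0.11 over pairs of lines), so the numbers are not taken to pair the samples. With the replicate block the counts were 1, 1, 5 and 5 in GSCLC_1 to GSCLC_4, 0 between GSC lines, 0 between conditions and 7 among GSCLC lines, adding Dcn. Because the GSC lines had r = -0.122, a crossed pairing was added after seeing the data and also gave 0 calls between them. Genes under about 1 RPM rest on 3 reads or fewer, so their differences are not detectable at this depth.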
